A study of Mus musculus with 24 samples.

Results

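Interferon-stimulated genes are the genes that cells switch on when interferons bind to their surface. The members were 43 mouse genes named in a list of such genes and matched by symbol to the deposited table, where all 43 were found among 15323 genes. They were grouped by known role into 5 transcription factors, 6 sensors of foreign RNA and DNA, 6 IFIT and IFITM proteins, 4 genes of the OAS family, 8 MX and other antiviral effectors, 2 genes of the ISG15 system, 7 interferon-inducible GTPases and 5 other induced genes. All 43 passed the filter on low values, a minimum of 1 in 3 or more libraries of a tissue, in heart and in liver.

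Type I interferons bind a receptor whose kinases activate Stat2, which binds with Irf9 at a promoter element called the interferon-stimulated response element (ISRE). Interferon gamma acts through another promoter element, the gamma-activated site (GAS), and many of the members answer to both signals. Mitochondrial DNA or RNA that reaches the cytosol can be detected by the same sensors that detect viruses, and many uninfected tissues keep a low level of these genes.

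Left ventricle and median liver lobe were taken from males aged 10 weeks, and polyadenylated RNA was sequenced. A genotype is written as the nuclear genome, a colon and the mitochondrial DNA (mtDNA). NZB:C57 mice carry the NZB nuclear genome on C57 mtDNA and BL/6J:NZB mice carry the C57BL/6 nuclear genome on NZB mtDNA, and both are conplastic lines made by 10 generations of backcrossing. NZB:NZB and BL/6J:C57 mice are the parental combinations. Each library is a pool of RNA from 4 animals and each group has 3 such pools per tissue, so p-values rest on the variation among pools. Whether the same animals gave the heart and the liver pools is not stated in the labels. The titles use one word for NZB libraries and another for BL/6J libraries, and reads were assigned on GRCm38, the genome of C57BL/6J mice. A difference between nuclear genomes in level therefore cannot be told apart from a difference in handling or in how reads of NZB alleles were assigned.

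Values are normalised read counts, that is read counts scaled between libraries by the authors. Libraries held 3714278 to 12949956 recovered reads in heart and 7294525 to 34974268 in liver, and the members rested on at least 3 reads in every library, the fewest being for Mx1. Marker genes matched the tissue labels: the summed value of 10 cardiomyocyte genes was at least 31800 in every heart library and at most 170 in every liver library. NZB:C57 hearts stood apart, with a cardiomyocyte sum of 272000 to 280000, against 31800 to 34100 in NZB:NZB, 44200 to 49700 in BL/6J:NZB and 46600 to 49100 in BL/6J:C57 hearts. Livers of the NZB nuclear genome held traces of these markers, from 0.549 to 162 in NZB:C57 and from 48.8 to 170 in NZB:NZB, against at most 1.22 in BL/6J livers. Across 7550 genes with a value above 5 in every library, the log2 fold change of NZB:C57 over NZB:NZB in heart and that in liver had a Pearson correlation of -0.87 (described across genes, which are not independent), and 81.0% of genes had opposite signs. Every result that uses NZB:C57 libraries carries these differences, and their part in the results was not tested. In bulk tissue, fewer cells of a type and less RNA per cell cannot be told apart.

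**Figure D1:**
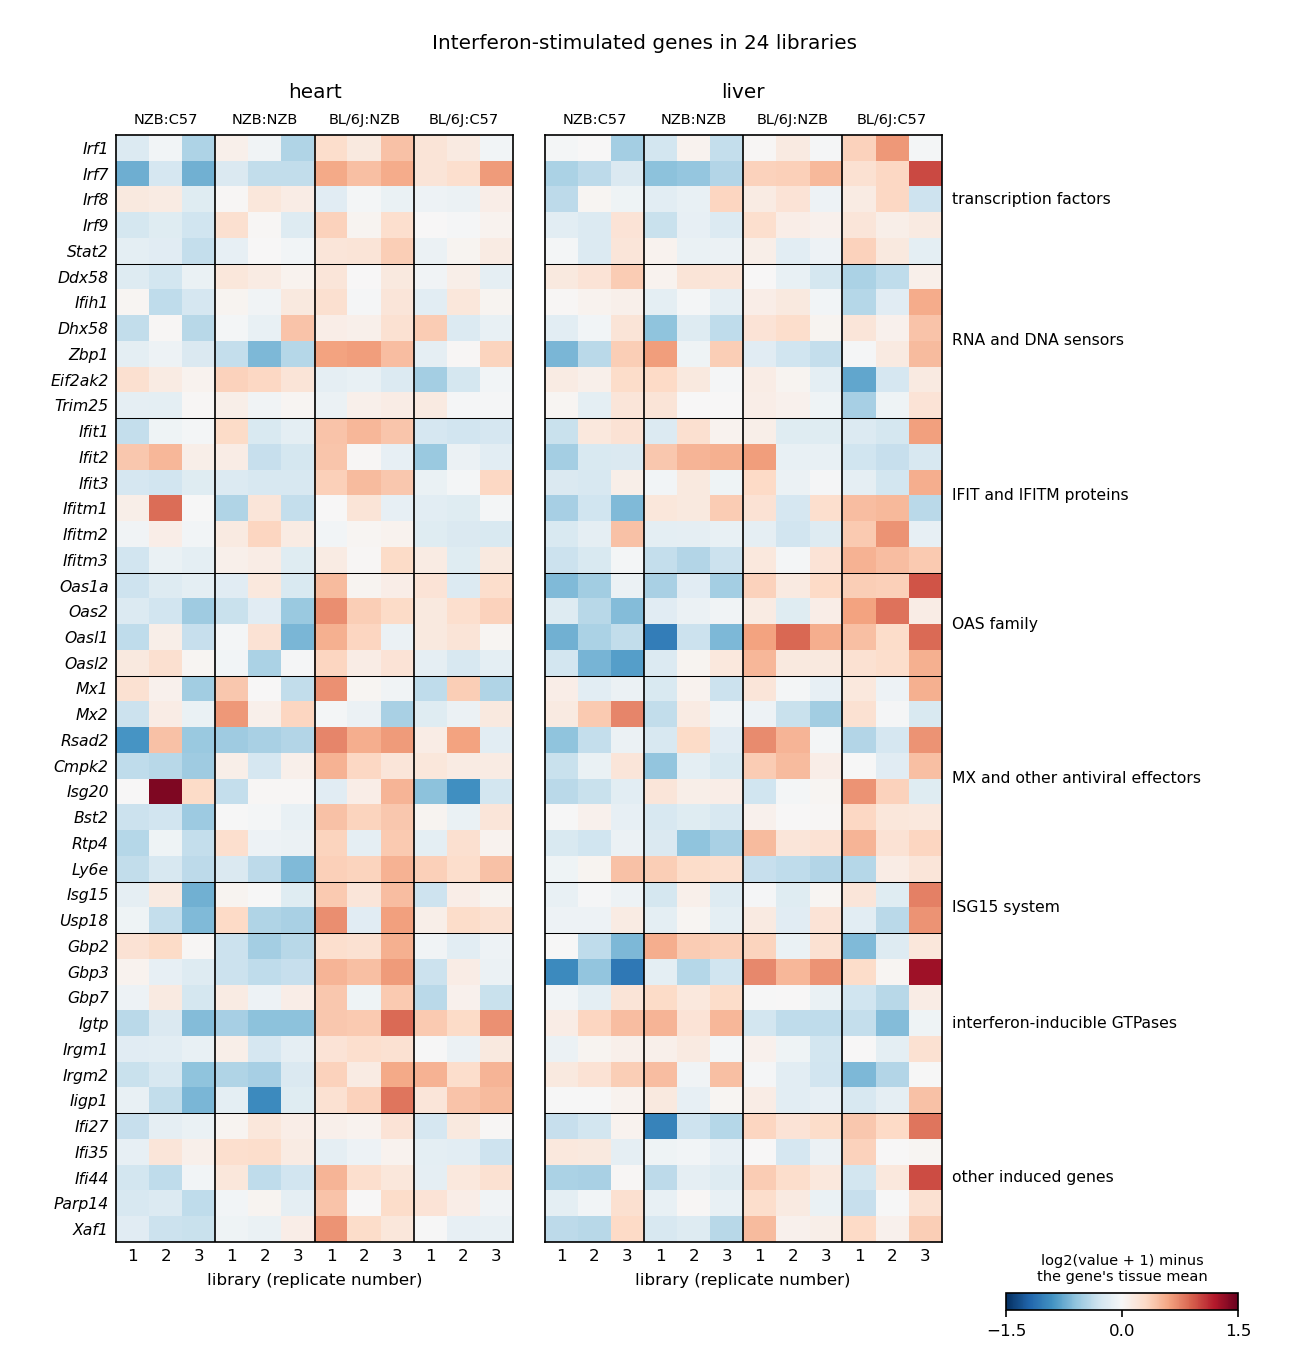
Level of each of the 43 members in the 24 libraries, as log2(value + 1) minus the mean of that gene over the 12 libraries of the tissue. Rows are ordered by role, columns by genotype and replicate with heart on the left, and colours saturate at 1.5. Igtp and Irgm2 are below their tissue mean in all 6 hearts with the NZB nuclear genome and Igtp is above it in all 6 livers with that genome.

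Levels were compared between genes per kilobase of exon. Ifitm3, which blocks virus entry at membranes, had the highest normalised read count per kilobase of all members in every group, with means of 82.2 in NZB:C57, 93.7 in NZB:NZB, 103 in BL/6J:NZB and 95.4 in BL/6J:C57 hearts, and of 581 in NZB:C57, 512 in NZB:NZB, 718 in BL/6J:NZB and 914 in BL/6J:C57 livers. Ifitm2, Bst2 and Ly6e held ranks 2 to 4 in heart and in liver in 7 of the 8 groups, and in BL/6J:NZB livers Iigp1 took rank 4. Mx1 and Zbp1 were among the 3 lowest members in every heart group, and Irf8 and Mx1 among the 3 lowest in every liver group. For 12 members at least 10% of their 31-base words also occur in another gene, foremost Oas1a (68.8%, with Oas1g), Ifit3 (61.8%, with Ifit3b) and Ifitm2 (55.5%, with a predicted gene), so that reads may be divided among copies. The others are Ifit1, Ifitm1, Ifitm3, Rtp4, Isg15, Gbp7, Igtp, Irgm2 and Ifi35.

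**Figure D2:**
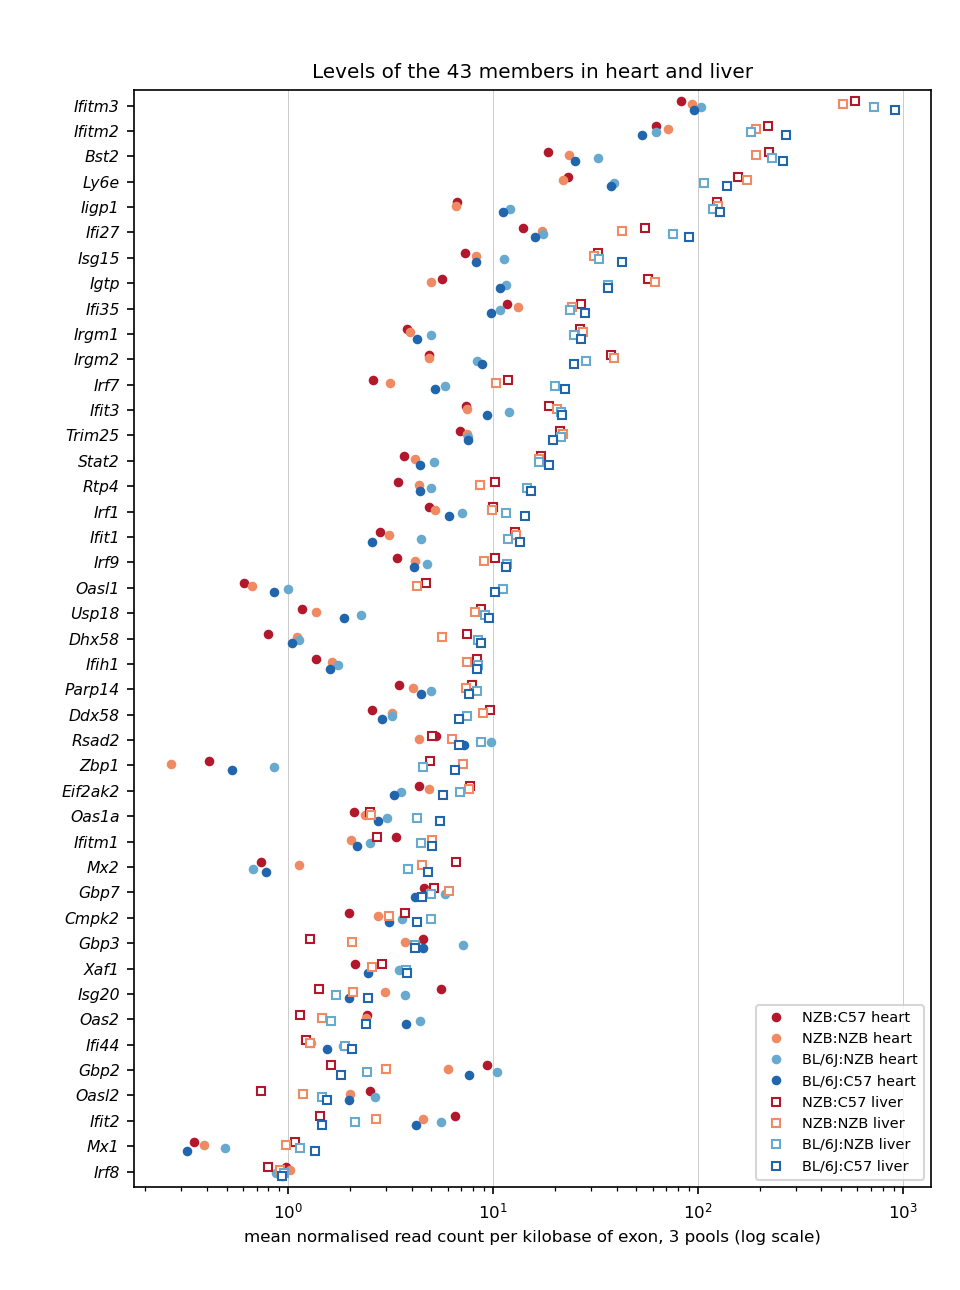
Mean normalised read count per kilobase of exon of each member in each group, on a log scale, with filled circles for hearts and open squares for livers, ordered by the level in BL/6J:C57 livers. Ifitm3 is the highest in every group, and the GTPase Gbp2 and the RNA-binding Ifit2 stand higher in hearts than in livers of all 4 genotypes.

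Promoter windows from RefSeq (GRCm38.p6, 250 bases before and 50 after a start) were at hand for 32 of the 43 members. An ISRE core, GAAANNGAAA on either strand, occurred in a window of 18 of these 32 (56.2%) and of 3.99% of 27025 genes with windows. A GAS core, TTCNNNGAA, which reads the same on both strands, occurred in 12 of 32 members (37.5%) and in 9.55% of all genes. The sequences below are those of Bst2, Gbp2 and Igtp, which were called (adjusted p under 0.05) in the most comparisons (7 each), and of Irgm2, the neighbour of Igtp, added after its values were seen. Capitals mark ISRE and GAS cores, which overlap in Bst2.
Bst2, chr8:71537423-71537722, minus strand: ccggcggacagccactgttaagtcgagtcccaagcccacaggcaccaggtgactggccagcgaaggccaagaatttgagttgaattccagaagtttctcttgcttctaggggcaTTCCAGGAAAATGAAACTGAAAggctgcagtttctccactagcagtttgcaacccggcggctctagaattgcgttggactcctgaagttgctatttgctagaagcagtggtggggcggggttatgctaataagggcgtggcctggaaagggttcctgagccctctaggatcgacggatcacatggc
Gbp2, chr3:142620413-142620712, plus strand: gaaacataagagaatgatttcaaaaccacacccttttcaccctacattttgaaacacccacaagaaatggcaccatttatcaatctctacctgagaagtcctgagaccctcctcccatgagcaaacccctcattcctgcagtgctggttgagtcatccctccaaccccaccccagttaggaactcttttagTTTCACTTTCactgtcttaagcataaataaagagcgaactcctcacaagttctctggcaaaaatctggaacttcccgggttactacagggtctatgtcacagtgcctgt
Igtp, chr11:58199306-58199605, plus strand: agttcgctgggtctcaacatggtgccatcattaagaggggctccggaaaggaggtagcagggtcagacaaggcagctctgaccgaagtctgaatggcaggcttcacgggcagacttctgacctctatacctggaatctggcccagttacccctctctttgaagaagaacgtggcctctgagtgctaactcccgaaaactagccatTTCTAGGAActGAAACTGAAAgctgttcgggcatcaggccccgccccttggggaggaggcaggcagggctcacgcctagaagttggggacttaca
Irgm2, chr11:58214727-58215026, plus strand: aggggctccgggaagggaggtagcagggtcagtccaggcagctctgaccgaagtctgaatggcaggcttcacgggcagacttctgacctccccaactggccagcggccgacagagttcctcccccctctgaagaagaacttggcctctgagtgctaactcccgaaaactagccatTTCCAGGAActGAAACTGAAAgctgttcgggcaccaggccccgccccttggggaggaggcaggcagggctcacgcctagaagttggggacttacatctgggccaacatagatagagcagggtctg
Igtp and Irgm2 each hold a GAS core followed by an ISRE core, which begin 45 and 34 bases before the start in Igtp and 75 and 64 bases before it in Irgm2. Bst2 has a GAS core 136 bases before the start and ISRE cores at 130 and 124 bases. Gbp2 has 1 ISRE core, 59 bases before the start, and no GAS core. A match of these letters is a description of the window and not a shown binding site.

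The comparison of nuclear genomes asks how the members differ between NZB and BL/6J mice that carry the same mtDNA. In heart most changes were decreases in the NZB nuclear genome. With NZB mtDNA, 20 members fell and 2 rose in NZB:NZB hearts against BL/6J:NZB hearts, where 29.1% of the 13803 genes tested were called (13.6% lower and 15.5% higher), and the median log2 fold change was -0.33 over the members and 0.02 over all genes. With C57 mtDNA, 10 members fell and 3 rose in NZB:C57 hearts against BL/6J:C57 hearts, where 35.2% of genes were called (13.1% lower and 22.1% higher), with a median of -0.22 over the members and 0.01 over all genes. In liver, 11 members fell and 2 rose with NZB mtDNA (24.9% of 13159 genes called, 11.9% lower and 12.9% higher), and 13 fell and 3 rose with C57 mtDNA (27.9% called, 14.8% lower and 13.1% higher). In liver the median over the members was -0.07 with NZB mtDNA (-0.01 over all genes) and -0.18 with C57 mtDNA (-0.03 over all genes). These calls are from limma on log2(value + 1), with p-values adjusted over all genes tested and a threshold of 0.05, and the added 1 makes a log2 fold change understate the change of members with low counts. The 2 comparisons of a tissue share no libraries. In heart 9 members fell on both mtDNAs (7.72% of genes did) and 1 rose on both (9.86%). In liver 8 fell on both (8.43%) and 1 rose on both (7.79%). Irf7 and Bst2 fell in all 4 comparisons, and 6.19% of genes were called in the same direction in all 4. Igtp was the only member called on both mtDNAs in opposite directions in the 2 tissues (0.34% of genes). Irf8, Ifih1, Trim25, Ifitm2, Mx1, Isg15, Usp18, Gbp7 and Ifi35 were called in none of the 8 comparisons between genotypes within a tissue. The share of all genes called in none was not counted. Scaling by library totals in place of the authors' scaling moved the median of all genes by -0.54 in the heart comparison on C57 mtDNA, so directions there are relative to the authors' scaling, and by at most 0.1 in the other 3. With library totals, 13 members fell and 4 rose in heart on NZB mtDNA, 37 fell and 1 rose in heart on C57 mtDNA, and 9 fell and 6 rose in liver on NZB mtDNA. Here and below, the share of all genes called with library totals is not given. Counts under that scaling are therefore not read as results about the members.

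**Figure D3:**
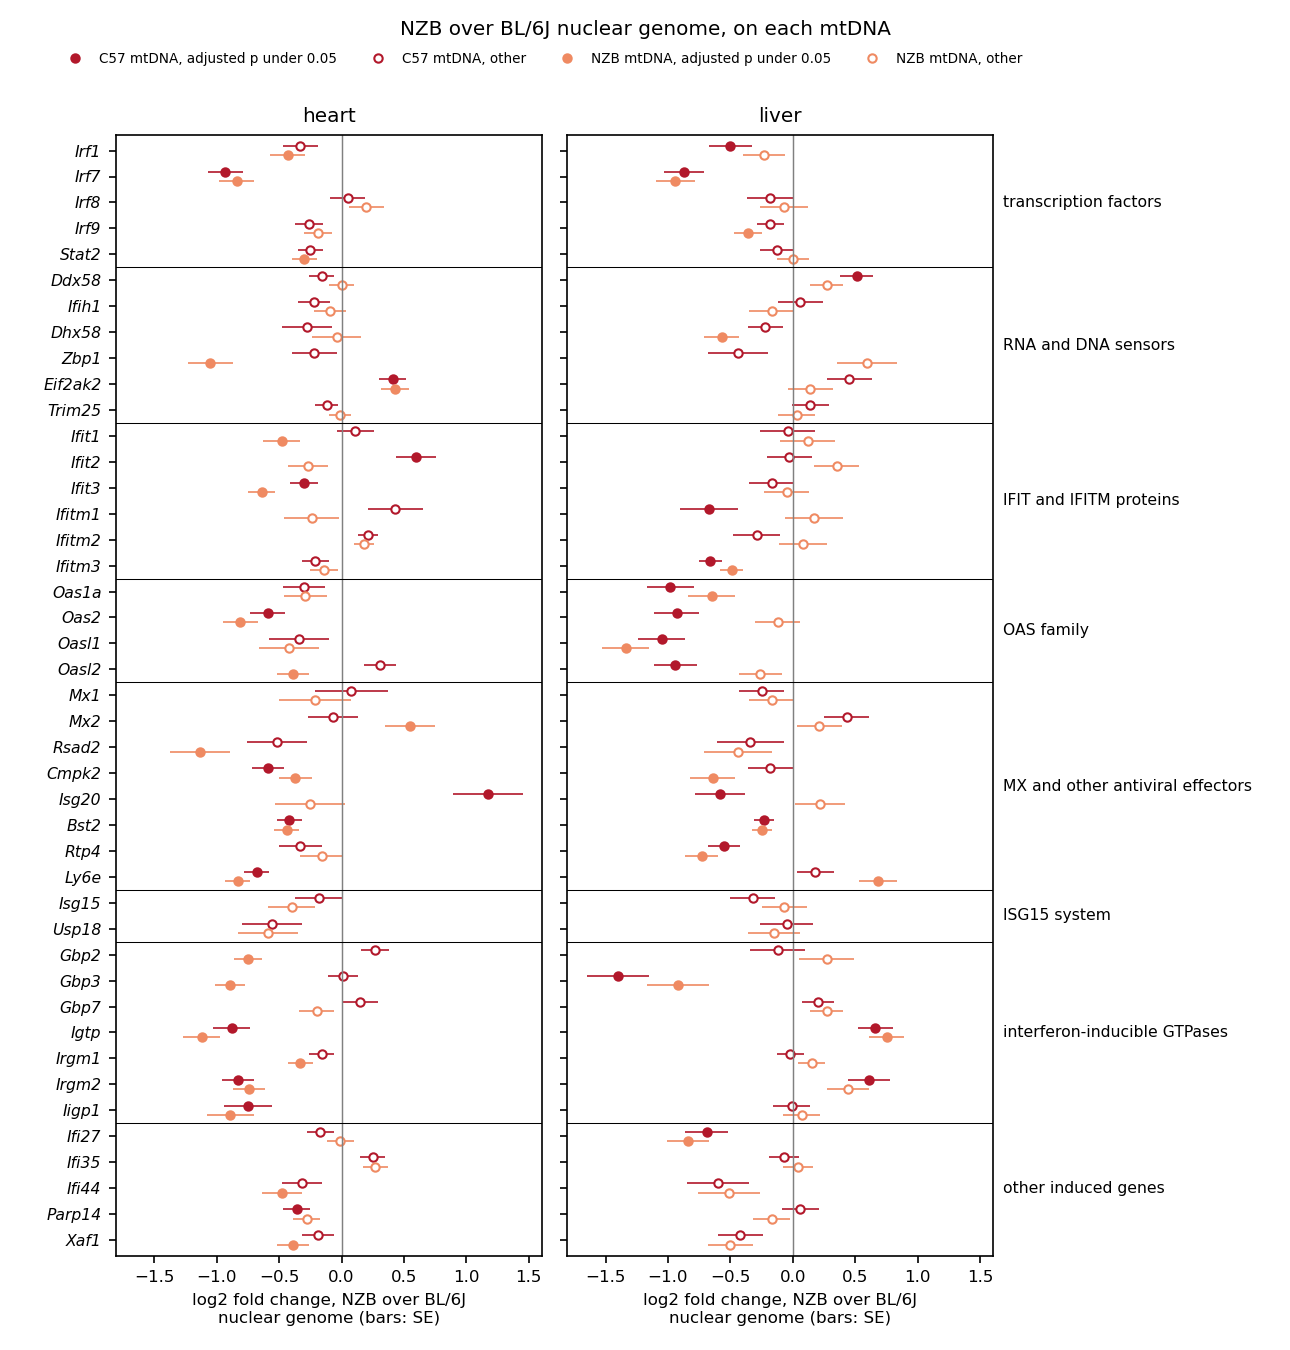
Log2 fold change of the NZB over the BL/6J nuclear genome for each member, with SE, in heart (left) and liver (right), on C57 mtDNA (dark red, NZB:C57 over BL/6J:C57) and on NZB mtDNA (orange, NZB:NZB over BL/6J:NZB). Filled points have an adjusted p under 0.05, and in heart 20 of the orange filled points lie below 0. The 3 red points above 0 in heart that are filled are Isg20, Ifit2 and Eif2ak2, and Eif2ak2 turned to -0.15 when library totals replaced the authors' scaling.

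Among the transcription factors, Irf7, which drives further interferon production, fell in both tissues. Its normalised read counts were 8.57, 12.3 and 8.61 in NZB:C57 hearts, 12.7, 11.3 and 11.3 in NZB:NZB hearts, 22.5, 20.8 and 22.4 in BL/6J:NZB hearts and 17.2, 18 and 23.6 in BL/6J:C57 hearts. In liver Irf7 had 41.2, 43.5 and 49.2 in NZB:C57 livers, 37.3, 38.1 and 42 in NZB:NZB livers, 73, 74.2 and 81 in BL/6J:NZB livers and 67.5, 71.8 and 115 in BL/6J:C57 livers. In each tissue all 6 libraries of the NZB nuclear genome lay below all 6 of the BL/6J nuclear genome. The log2 fold change in heart was -0.93 (SE 0.14, adjusted p = 4.08e-05) on C57 mtDNA and -0.84 (SE 0.14, adjusted p = 0.000232) on NZB mtDNA, and in liver it was -0.87 (SE 0.16, adjusted p = 0.00113) on C57 mtDNA and -0.94 (SE 0.16, adjusted p = 0.000673) on NZB mtDNA. All of these calls held under every alternative run.

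Stat2 and Irf9, which bind the ISRE together, were each called in 1 nuclear comparison. Stat2 had normalised read counts of 22.8, 22.6 and 19.6 in NZB:C57 hearts, 23.4, 25.6 and 24.7 in NZB:NZB hearts, 29.1, 29.2 and 33.2 in BL/6J:NZB hearts and 24, 26.2 and 27.9 in BL/6J:C57 hearts. NZB:NZB hearts lay below BL/6J:NZB hearts, with a log2 fold change of -0.30 (SE 0.10, adjusted p = 0.0255). Stat2 lost this call with library totals, and without NZB:NZB heart replicate 1 or 3 or BL/6J:NZB heart replicate 3 (log2 fold change -0.31 to -0.24 without a library). Stat2 in liver had 99.9, 88.1 and 116 in NZB:C57 livers, 105, 95.3 and 95.6 in NZB:NZB livers, 108, 91.4 and 97 in BL/6J:NZB livers and 129, 113 and 92 in BL/6J:C57 livers. Its groups overlapped in both nuclear comparisons. Irf9 in liver had 50.7, 49.1 and 65.7 in NZB:C57 livers, 44.6, 51.8 and 49.2 in NZB:NZB livers, 67.9, 60.8 and 59.2 in BL/6J:NZB livers and 64.5, 60.1 and 62.3 in BL/6J:C57 livers. Irf9 was lower in NZB:NZB than in BL/6J:NZB livers, without overlap, by a log2 fold change of -0.36 (SE 0.11, adjusted p = 0.0308). Irf9 lost this call with library totals, and without NZB:NZB liver replicate 1 or 3 or BL/6J:NZB liver replicate 1 or 2 (log2 fold change -0.38 to -0.30 without a library). Irf1, a factor induced by interferon gamma, fell in NZB:NZB hearts (20.6 ± 4.0, against 27.9 ± 2.97 in BL/6J:NZB hearts, mean ± SD, n = 3 each) by a log2 fold change of -0.43 (SE 0.14, adjusted p = 0.0283). Irf1 lost this call with library totals, and without NZB:NZB heart replicate 3 or BL/6J:NZB heart replicate 1 or 3 (log2 fold change -0.44 to -0.27 without a library). Irf1 also fell in NZB:C57 livers (39.6 ± 7.51, against 56.9 ± 13.4 in BL/6J:C57 livers) by a log2 fold change of -0.50 (SE 0.17, adjusted p = 0.0463). Irf1 lost this call with no filter on low values, edgeR or only the libraries compared, and without NZB:C57 liver replicate 1 or 3 or BL/6J:C57 liver replicate 1 or 2 (log2 fold change -0.58 to -0.34 without a library). Irf8, the factor of the macrophage lineage, passed the test in no nuclear comparison, and its group means stayed between 5.63 and 7.23 over both tissues.

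Among the sensors, Eif2ak2 (PKR), which halts translation on double-stranded RNA, rose in NZB hearts. Its counts were 24, 22 and 21 in NZB:C57 hearts, 25.9, 25.2 and 23.2 in NZB:NZB hearts, 18.3, 18.6 and 17.4 in BL/6J:NZB hearts and 13.9, 16.7 and 19.6 in BL/6J:C57 hearts. All 6 libraries of the NZB nuclear genome lay above all 6 of the BL/6J nuclear genome, with a log2 fold change of 0.41 (SE 0.11, adjusted p = 0.00872) on C57 mtDNA and 0.43 (SE 0.11, adjusted p = 0.00847) on NZB mtDNA. The call on C57 mtDNA was lost without BL/6J:C57 heart replicate 1 (log2 fold change 0.29), and library totals turned its direction to -0.15. The call on NZB mtDNA held under every alternative run.

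Zbp1, a sensor of Z-form nucleic acids that can start necroptosis, was near the detection floor in heart. Its heart values were 1.44, 1.57 and 1.32 in NZB:C57 hearts, 1.11, 0.696 and 1.01 in NZB:NZB hearts, 3.13, 3.18 and 2.72 in BL/6J:NZB hearts and 1.46, 1.75 and 2.4 in BL/6J:C57 hearts, and NZB:NZB hearts held as few as 4 reads of it. NZB:NZB hearts lay below BL/6J:NZB hearts by a log2 fold change of -1.05 (SE 0.18, adjusted p = 0.00035), a call that held under every alternative run. In liver Zbp1 had 11.8, 14.6 and 25.7 in NZB:C57 livers, 30.9, 18.8 and 25.7 in NZB:NZB livers, 17.3, 15.7 and 15 in BL/6J:NZB livers and 19.4, 21.6 and 27.7 in BL/6J:C57 livers. NZB:NZB livers lay above BL/6J:NZB livers without overlap, but the difference did not pass the test (0.59, SE 0.24, adjusted p = 0.0884).

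The receptors of viral RNA in the cytosol are Ddx58 (RIG-I) and Ifih1 (MDA5), and Dhx58 (LGP2) regulates both. Ddx58 had 18, 16.9 and 19.2 in NZB:C57 hearts, 23.4, 22.6 and 21.5 in NZB:NZB hearts, 23.7, 20.8 and 23.1 in BL/6J:NZB hearts and 20, 22.1 and 18.8 in BL/6J:C57 hearts. Its liver values were 63.5, 65.8 and 74.9 in NZB:C57 livers, 59.3, 65.6 and 64.8 in NZB:NZB livers, 57.2, 52.8 and 47.6 in BL/6J:NZB livers and 40.9, 43.5 and 60.2 in BL/6J:C57 livers. In liver the NZB nuclear genome had higher values on both mtDNAs without overlap, and the test was passed on C57 mtDNA, at 0.51 (SE 0.13, adjusted p = 0.012). Ddx58 lost this call with only the libraries compared, and without BL/6J:C57 liver replicate 1 (log2 fold change 0.40 without a library). Dhx58 had heart values of 2.29, 3.3 and 2.21 in NZB:C57 hearts, 3.18, 2.96 and 4.73 in NZB:NZB hearts, 3.58, 3.49 and 4.01 in BL/6J:NZB hearts and 4.56, 2.7 and 2.96 in BL/6J:C57 hearts, which overlapped throughout. In liver Dhx58 had 21.7, 23.5 and 28 in NZB:C57 livers, 15.6, 21 and 18.5 in NZB:NZB livers, 28.3, 29.5 and 25 in BL/6J:NZB livers and 27.7, 25.4 and 32.9 in BL/6J:C57 livers. It fell in NZB:NZB livers, below every BL/6J:NZB liver, by a log2 fold change of -0.57 (SE 0.14, adjusted p = 0.00802), a call kept under every alternative run. Ifih1 had 13.2, 9.66 and 10.6 in NZB:C57 hearts, 13.3, 12.4 and 14.4 in NZB:NZB hearts, 15.4, 12.7 and 14.7 in BL/6J:NZB hearts and 11.4, 14.6 and 13.3 in BL/6J:C57 hearts. Its liver values were 66.6, 67.9 and 69.1 in NZB:C57 livers, 59, 64.5 and 59.7 in NZB:NZB livers, 70.5, 72.8 and 63.8 in BL/6J:NZB livers and 48.6, 58.4 and 96.8 in BL/6J:C57 livers. The groups of its nuclear comparisons overlapped in both tissues. Trim25, a ubiquitin ligase that acts on RIG-I, passed the test in no nuclear comparison.

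The IFIT proteins bind viral RNA, and Ifit3 fell in NZB hearts on both mtDNAs. It had 12.8, 12.5 and 13.5 in NZB:C57 hearts, 13.2, 12.9 and 12.8 in NZB:NZB hearts, 20, 21.8 and 20.7 in BL/6J:NZB hearts and 14.3, 15.1 and 19.4 in BL/6J:C57 hearts. All 6 NZB libraries lay below all 6 BL/6J libraries. The log2 fold change was -0.30 (SE 0.11, adjusted p = 0.047) on C57 mtDNA, lost with no filter on low values, DESeq2 or only the libraries compared, and without NZB:C57 heart replicate 1, 2 or 3 or BL/6J:C57 heart replicate 3 (log2 fold change -0.33 to -0.17 without a library), and -0.64 (SE 0.11, adjusted p = 0.00036) on NZB mtDNA, where every alternative run kept the call. Ifit1 had 6.28, 7.92 and 8.17 in NZB:C57 hearts, 10.4, 6.96 and 7.44 in NZB:NZB hearts, 11.6, 12.2 and 11.5 in BL/6J:NZB hearts and 6.84, 6.68 and 6.84 in BL/6J:C57 hearts. The 3 BL/6J:NZB hearts were the highest, and NZB:NZB hearts were lower than these by a log2 fold change of -0.48 (SE 0.15, adjusted p = 0.0196). Ifit1 lost this call with DESeq2, and without NZB:NZB heart replicate 2 or 3 or BL/6J:NZB heart replicate 2 (log2 fold change -0.46 to -0.38 without a library). Ifit2 had 26.7, 28.5 and 21.2 in NZB:C57 hearts, 21.7, 15.5 and 16.4 in NZB:NZB hearts, 26.8, 20.2 and 18.3 in BL/6J:NZB hearts and 13.2, 18.8 and 17.7 in BL/6J:C57 hearts. NZB:C57 hearts lay above BL/6J:C57 hearts by a log2 fold change of 0.60 (SE 0.16, adjusted p = 0.00846), a call lost without BL/6J:C57 heart replicate 1 (log2 fold change 0.45), and library totals reduced it to 0.03. In liver Ifit2 had 4.78, 6.02 and 6.09 in NZB:C57 livers, 9.87, 10.7 and 10.9 in NZB:NZB livers, 11.8, 6.62 and 6.62 in BL/6J:NZB livers and 5.73, 5.47 and 5.97 in BL/6J:C57 livers. They overlapped in both nuclear comparisons.

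The IFITM proteins sit in membranes and block virus entry. Ifitm3 had 51.4, 59 and 56.7 in NZB:C57 hearts, 66.6, 68.4 and 55.6 in NZB:NZB hearts, 68.9, 63.8 and 77.4 in BL/6J:NZB hearts and 68.7, 55.3 and 70 in BL/6J:C57 hearts, which overlapped. In liver, where it was the most abundant member per kilobase, Ifitm3 had 359, 383 and 439.6 in NZB:C57 livers, 349.7, 332 and 359.8 in NZB:NZB livers, 500.3, 442 and 518 in BL/6J:NZB livers and 645, 622 and 592 in BL/6J:C57 livers. All 6 NZB livers lay below all 6 BL/6J livers, by a log2 fold change of -0.66 (SE 0.09, adjusted p = 0.000168) on C57 mtDNA and -0.49 (SE 0.09, adjusted p = 0.002) on NZB mtDNA, calls that held under every alternative run. Ifitm2 had 39.1, 43.4 and 39.3 in NZB:C57 hearts, 44.6, 50.8 and 44.4 in NZB:NZB hearts, 39.5, 41.5 and 42.2 in BL/6J:NZB hearts and 35.6, 34.8 and 34.5 in BL/6J:C57 hearts. On each mtDNA the NZB hearts lay above the BL/6J hearts, but the adjusted p missed the threshold, with a log2 fold change of 0.21 (SE 0.08, adjusted p = 0.0536) on C57 mtDNA and 0.18 (SE 0.08, adjusted p = 0.111) on NZB mtDNA. In liver Ifitm2 had 118, 125 and 187 in NZB:C57 livers, 124, 125 and 128 in NZB:NZB livers, 125, 112 and 119.8 in BL/6J:NZB livers and 180.2, 220.0 and 126 in BL/6J:C57 livers, with overlap between the nuclear genomes. Ifitm1 fell in NZB:C57 livers by a log2 fold change of -0.67 (SE 0.23, adjusted p = 0.045), although BL/6J:C57 replicate 3 lay within the range of the NZB:C57 livers. Ifitm1 lost this call with no filter on low values, edgeR or only the libraries compared, and without NZB:C57 liver replicate 1, 2 or 3 or BL/6J:C57 liver replicate 1 or 2 (log2 fold change -0.76 to -0.51 without a library).

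All 4 OAS genes fell in NZB livers on C57 mtDNA, and Oas1a and Oasl1 did so on NZB mtDNA. Oas1a and Oas2 make oligoadenylates that activate RNase L, and Oasl1 is a relative that in mice restrains translation of Irf7. Oasl1 had 10.4, 12.6 and 13.7 in NZB:C57 livers, 8.23, 14.2 and 10.8 in NZB:NZB livers, 27.6, 33.4 and 26.5 in BL/6J:NZB livers and 24.9, 21.9 and 33 in BL/6J:C57 livers. All 6 NZB livers lay below all 6 BL/6J livers, by a log2 fold change of -1.05 (SE 0.19, adjusted p = 0.000943) on C57 mtDNA and -1.34 (SE 0.19, adjusted p = 0.000133) on NZB mtDNA, the largest decrease of a member on NZB mtDNA in liver. Oas1a had 3.76, 4.27 and 6.09 in NZB:C57 livers, 4.39, 5.7 and 4.31 in NZB:NZB livers, 8.58, 7.3 and 8.28 in BL/6J:NZB livers and 8.72, 8.7 and 13.5 in BL/6J:C57 livers. Its NZB livers were also all below its BL/6J livers, by a log2 fold change of -0.98 (SE 0.19, adjusted p = 0.0018) on C57 mtDNA and -0.65 (SE 0.19, adjusted p = 0.0236) on NZB mtDNA. The second of these was lost without NZB:NZB liver replicate 1 or 3 or BL/6J:NZB liver replicate 1 or 3 (log2 fold change -0.63 to -0.59). Oas2 had 6.04, 5.05 and 4.12 in NZB:C57 livers, 6.12, 6.59 and 6.75 in NZB:NZB livers, 7.74, 6.1 and 7.63 in BL/6J:NZB livers and 11.2, 13.2 and 7.72 in BL/6J:C57 livers. Oasl2 had 6.04, 4.27 and 3.79 in NZB:C57 livers, 6.4, 7.76 and 8.52 in NZB:NZB livers, 11, 8.42 and 8.42 in BL/6J:NZB livers and 8.99, 9.2 and 11.3 in BL/6J:C57 livers. On C57 mtDNA both fell without overlap, Oas2 by -0.93 (SE 0.18, adjusted p = 0.00175) and Oasl2 by -0.94 (SE 0.17, adjusted p = 0.00111), and on NZB mtDNA neither passed the test.

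In heart Oas2 had 11.9, 11.2 and 9.27 in NZB:C57 hearts, 10.8, 12.2 and 9.13 in NZB:NZB hearts, 23.1, 18.3 and 17.1 in BL/6J:NZB hearts and 15.4, 16.7 and 17.9 in BL/6J:C57 hearts. All 6 NZB hearts were below all 6 BL/6J hearts, with a log2 fold change of -0.59 (SE 0.14, adjusted p = 0.00247) on C57 mtDNA and -0.81 (SE 0.14, adjusted p = 0.000265) on NZB mtDNA, and both calls held under every alternative run. Oasl2 had 16.1, 17.2 and 14.8 in NZB:C57 hearts, 14.1, 10.1 and 14.2 in NZB:NZB hearts, 18.3, 15.7 and 16.8 in BL/6J:NZB hearts and 13, 12.1 and 12.9 in BL/6J:C57 hearts. It was lower in NZB:NZB than in BL/6J:NZB hearts by a log2 fold change of -0.39 (SE 0.13, adjusted p = 0.0265), lost with DESeq2, library totals or only the libraries compared, and without NZB:NZB heart replicate 2 or BL/6J:NZB heart replicate 1 or 3 (log2 fold change -0.40 to -0.24 without a library), and higher in NZB:C57 than in BL/6J:C57 hearts without passing the test (0.31, SE 0.13, adjusted p = 0.0631). Oasl1 was scarce in heart, at 1.27, 2.15 and 1.32 in NZB:C57 hearts, 1.91, 2.44 and 0.845 in NZB:NZB hearts, 3.28, 2.7 and 1.79 in BL/6J:NZB hearts and 2.28, 2.38 and 2.03 in BL/6J:C57 hearts, with overlap between all groups compared.

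Of the other antiviral effectors, Bst2 (tetherin), which holds budding viruses on the cell surface, fell in both tissues. Bst2 had 17.5, 17.9 and 14.8 in NZB:C57 hearts, 21.8, 21.6 and 20.3 in NZB:NZB hearts, 30.1, 28.1 and 29.4 in BL/6J:NZB hearts and 22.7, 20.5 and 25.1 in BL/6J:C57 hearts. Each NZB group lay below the BL/6J group of its mtDNA, by a log2 fold change of -0.42 (SE 0.10, adjusted p = 0.00299) on C57 mtDNA and -0.44 (SE 0.10, adjusted p = 0.00315) on NZB mtDNA. In liver Bst2 had 201, 212 and 185 in NZB:C57 livers, 170.4, 178 and 171 in NZB:NZB livers, 212, 203 and 205 in BL/6J:NZB livers and 251, 228 and 225 in BL/6J:C57 livers. The groups again did not overlap, and the differences were -0.23 (SE 0.08, adjusted p = 0.0428) on C57 mtDNA, lost with edgeR, DESeq2 or only the libraries compared, and without NZB:C57 liver replicate 1 or 3 or BL/6J:C57 liver replicate 1 or 2 (log2 fold change -0.25 to -0.18 without a library), and -0.25 (SE 0.08, adjusted p = 0.0328) on NZB mtDNA. The second of these was lost with library totals, and without NZB:NZB liver replicate 1, 2 or 3 or BL/6J:NZB liver replicate 1, 2 or 3 (log2 fold change -0.27 to -0.23 without a library).

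Ly6e, a lipid-anchored surface protein, fell in NZB hearts and did not fall in NZB livers. Ly6e had 85.7, 93.7 and 83.9 in NZB:C57 hearts, 95.5, 84.2 and 69.3 in NZB:NZB hearts, 142, 139.6 and 159.5 in BL/6J:NZB hearts and 142, 133 and 149.8 in BL/6J:C57 hearts. All 6 NZB hearts lay below all 6 BL/6J hearts, by a log2 fold change of -0.68 (SE 0.10, adjusted p = 2.35e-05) on C57 mtDNA and -0.83 (SE 0.10, adjusted p = 6.31e-06) on NZB mtDNA. In liver Ly6e had 509, 546 and 720.0 in NZB:C57 livers, 684, 642 and 632 in NZB:NZB livers, 418, 408 and 391 in BL/6J:NZB livers and 393, 573 and 603 in BL/6J:C57 livers. NZB:NZB livers lay above BL/6J:NZB livers by a log2 fold change of 0.68 (SE 0.15, adjusted p = 0.00511), while NZB:C57 and BL/6J:C57 livers overlapped. The 3 calls held under every alternative run.

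Rsad2 (viperin) and Cmpk2, a mitochondrial nucleotide kinase, are neighbouring genes. Rsad2 had 14.1, 36.7 and 17.9 in NZB:C57 hearts, 18.2, 18.8 and 19.6 in NZB:NZB hearts, 45.3, 39.5 and 42.3 in BL/6J:NZB hearts and 29, 41.2 and 24 in BL/6J:C57 hearts. NZB:NZB hearts lay below BL/6J:NZB hearts by a log2 fold change of -1.13 (SE 0.24, adjusted p = 0.00176), kept under every alternative run, and NZB:C57 replicate 2 stood far above the other NZB:C57 hearts. Cmpk2 had 8.66, 8.42 and 7.73 in NZB:C57 hearts, 12.4, 9.57 and 12.3 in NZB:NZB hearts, 17.1, 14.6 and 13.3 in BL/6J:NZB hearts and 13.2, 12.7 and 12.7 in BL/6J:C57 hearts. All 6 NZB hearts were below all 6 BL/6J hearts, by a log2 fold change of -0.59 (SE 0.13, adjusted p = 0.00134) on C57 mtDNA and -0.37 (SE 0.13, adjusted p = 0.0379) on NZB mtDNA. The second of these was lost with DESeq2, library totals or only the libraries compared, and without NZB:NZB heart replicate 2 or BL/6J:NZB heart replicate 1 or 2 (log2 fold change -0.38 to -0.25 without a library). In liver Cmpk2 had 12.7, 15.1 and 18.6 in NZB:C57 livers, 10.5, 14.6 and 13.7 in NZB:NZB livers, 21.5, 23.1 and 17.6 in BL/6J:NZB livers and 16.2, 14.4 and 22.6 in BL/6J:C57 livers. NZB:NZB livers were lower than BL/6J:NZB livers by a log2 fold change of -0.64 (SE 0.18, adjusted p = 0.0206). Cmpk2 lost this call without NZB:NZB liver replicate 1 or BL/6J:NZB liver replicate 1 or 2 (log2 fold change -0.61 to -0.51).

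Rtp4, a receptor transporter protein, had 21.3, 20.4 and 23.7 in NZB:C57 livers, 21.5, 16.2 and 17.7 in NZB:NZB livers, 35.4, 28.7 and 29.4 in BL/6J:NZB livers and 36.3, 29.4 and 31.8 in BL/6J:C57 livers. All 6 NZB livers lay below all 6 BL/6J livers, by a log2 fold change of -0.55 (SE 0.13, adjusted p = 0.00597) on C57 mtDNA and -0.73 (SE 0.13, adjusted p = 0.000876) on NZB mtDNA, and both calls held under every alternative run. Isg20, an RNA exonuclease, had 6.03, 17.5 and 7.51 in NZB:C57 hearts, 4.45, 6.09 and 6.08 in NZB:NZB hearts, 5.22, 6.51 and 8.96 in BL/6J:NZB hearts and 3.55, 2.7 and 4.8 in BL/6J:C57 hearts. NZB:C57 hearts lay above BL/6J:C57 hearts by a log2 fold change of 1.17 (SE 0.28, adjusted p = 0.00345), with replicate 2 the highest of all hearts. In liver Isg20 had 2.35, 2.52 and 2.96 in NZB:C57 livers, 4.02, 3.73 and 3.76 in NZB:NZB livers, 2.61, 3.35 and 3.53 in BL/6J:NZB livers and 6.08, 4.63 and 2.91 in BL/6J:C57 livers, and its decrease in NZB:C57 livers, -0.58 (SE 0.20, adjusted p = 0.0419), had overlapping groups. Isg20 lost this call with no filter on low values, edgeR, DESeq2 or only the libraries compared, and without NZB:C57 liver replicate 1, 2 or 3 or BL/6J:C57 liver replicate 1 or 2 (log2 fold change -0.65 to -0.38 without a library). Mx2, a dynamin-like GTPase, rose in NZB:NZB hearts by a log2 fold change of 0.55 (SE 0.20, adjusted p = 0.044). The gene annotation lists Mx2 as a polymorphic pseudogene. Mx2 lost this call with DESeq2 or only the libraries compared, and without NZB:NZB heart replicate 1 or 3 or BL/6J:NZB heart replicate 2 or 3 (log2 fold change 0.40 to 0.61 without a library). Mx1 passed the test in no nuclear comparison.

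The ISG15 system gave no call between genotypes. Isg15, a ubiquitin-like modifier, had 5.77, 7.18 and 3.53 in NZB:C57 hearts, 6.67, 6.44 and 5.58 in NZB:NZB hearts, 8.79, 7.46 and 9.31 in BL/6J:NZB hearts and 5.01, 6.99 and 6.65 in BL/6J:C57 hearts. Usp18, which removes Isg15 and dampens the receptor, had 4.16, 3.22 and 2.43 in NZB:C57 hearts, 5.64, 2.96 and 2.87 in NZB:NZB hearts, 7.75, 3.81 and 7.31 in BL/6J:NZB hearts and 4.74, 5.56 and 5.36 in BL/6J:C57 hearts. NZB:NZB hearts lay below BL/6J:NZB hearts for Isg15 (-0.40, SE 0.19, adjusted p = 0.132) and NZB:C57 hearts below BL/6J:C57 hearts for Usp18 (-0.56, SE 0.24, adjusted p = 0.0849), without passing the test. In liver Isg15 had 23.8, 25.4 and 24.4 in NZB:C57 livers, 21.3, 27.1 and 22.3 in NZB:NZB livers, 25.5, 22.6 and 26.3 in BL/6J:NZB livers and 29.4, 22.6 and 44.3 in BL/6J:C57 livers. Usp18 had 23, 23.1 and 26.7 in NZB:C57 livers, 21.9, 24.8 and 21.9 in NZB:NZB livers, 26.9, 21.6 and 28.2 in BL/6J:NZB livers and 21.8, 18.2 and 39.5 in BL/6J:C57 livers. The third BL/6J:C57 liver was the highest for both genes.

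The interferon-inducible GTPases guard against vacuoles that hold pathogens. Igtp (Irgm3, chromosome 11, 58199556 to 58207591 on GRCm38) and Irgm2 (58199618 to 58222782) overlap on the same strand, so their reads are not fully separable, and both are regulators of effector GTPases such as Iigp1. Igtp had 11.5, 13.2 and 9.49 in NZB:C57 hearts, 10.7, 9.74 and 9.8 in NZB:NZB hearts, 20.9, 20.6 and 28.7 in BL/6J:NZB hearts and 20.6, 19.1 and 25.5 in BL/6J:C57 hearts. All 6 NZB hearts lay below all 6 BL/6J hearts, by a log2 fold change of -0.88 (SE 0.15, adjusted p = 0.000116) on C57 mtDNA and -1.12 (SE 0.15, adjusted p = 1.83e-05) on NZB mtDNA. In liver Igtp had 101, 116 and 129 in NZB:C57 livers, 133, 108 and 132 in NZB:NZB livers, 77, 71.6 and 71.6 in BL/6J:NZB livers and 72.3, 59.1 and 88.8 in BL/6J:C57 livers. Here all 6 NZB livers lay above all 6 BL/6J livers, by a log2 fold change of 0.66 (SE 0.14, adjusted p = 0.00333) on C57 mtDNA and 0.75 (SE 0.14, adjusted p = 0.0014) on NZB mtDNA. The 4 calls held under every alternative run.

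Irgm2 had 18.7, 19.9 and 15.2 in NZB:C57 hearts, 17.1, 16.5 and 20.3 in NZB:NZB hearts, 30.6, 26 and 35.7 in BL/6J:NZB hearts and 34.6, 28.8 and 34.2 in BL/6J:C57 hearts. All 6 NZB hearts lay below all 6 BL/6J hearts, by a log2 fold change of -0.83 (SE 0.13, adjusted p = 5.73e-05) on C57 mtDNA and -0.74 (SE 0.13, adjusted p = 0.00034) on NZB mtDNA, kept under every alternative run. In liver Irgm2 had 129, 135 and 150.5 in NZB:C57 livers, 162, 112 and 159 in NZB:NZB livers, 115, 104 and 95.5 in BL/6J:NZB livers and 72.7, 85.9 and 116 in BL/6J:C57 livers. NZB:C57 livers lay above BL/6J:C57 livers by a log2 fold change of 0.61 (SE 0.17, adjusted p = 0.015), a call lost without NZB:C57 liver replicate 3 or BL/6J:C57 liver replicate 1 (log2 fold change 0.46 to 0.55), while NZB:NZB and BL/6J:NZB livers overlapped. Iigp1, an effector that coats vacuoles, had 46.2, 38.7 and 30.9 in NZB:C57 hearts, 45.1, 25.4 and 43.9 in NZB:NZB hearts, 59, 64 and 88.2 in BL/6J:NZB hearts and 57.1, 67.7 and 69.8 in BL/6J:C57 hearts. Its NZB hearts were all below its BL/6J hearts, by a log2 fold change of -0.75 (SE 0.19, adjusted p = 0.00505) on C57 mtDNA and -0.89 (SE 0.19, adjusted p = 0.002) on NZB mtDNA, and every alternative run kept both calls. In liver Iigp1 had 712, 712 and 741 in NZB:C57 livers, 789, 657 and 732 in NZB:NZB livers, 769.9, 642 and 657 in BL/6J:NZB livers and 606, 652 and 973 in BL/6J:C57 livers, and its groups overlapped. Irgm1, the regulator encoded apart from Igtp and Irgm2, had 21.6, 21.7 and 22.5 in NZB:C57 hearts, 26.1, 20.4 and 22.1 in NZB:NZB hearts, 28.3, 29.2 and 28.8 in BL/6J:NZB hearts and 24.3, 22.9 and 27.2 in BL/6J:C57 hearts. It was lower in NZB:NZB than in BL/6J:NZB hearts by a log2 fold change of -0.33 (SE 0.10, adjusted p = 0.0205). Irgm1 lost this call with DESeq2 or library totals, and without NZB:NZB heart replicate 2 or 3 or BL/6J:NZB heart replicate 2 or 3 (log2 fold change -0.33 to -0.25 without a library). In liver Irgm1 had 143, 156 and 161 in NZB:C57 livers, 160.3, 167 and 149 in NZB:NZB livers, 159.6, 145 and 125 in BL/6J:NZB livers and 153, 138 and 178 in BL/6J:C57 livers. They overlapped in both nuclear comparisons.

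The guanylate-binding proteins attack membranes of pathogens and their vacuoles. Gbp2 had 24.1, 25.3 and 20.8 in NZB:C57 hearts, 16.3, 14.1 and 15.2 in NZB:NZB hearts, 24.7, 24.3 and 30.1 in BL/6J:NZB hearts and 19.8, 18.3 and 19.4 in BL/6J:C57 hearts. NZB:NZB hearts lay below BL/6J:NZB hearts by a log2 fold change of -0.75 (SE 0.11, adjusted p = 5.2e-05), kept under every alternative run, whereas NZB:C57 hearts lay above BL/6J:C57 hearts without passing the test (0.27, SE 0.11, adjusted p = 0.0617). In liver Gbp2 had 5.33, 3.88 and 2.96 in NZB:C57 livers, 8.23, 7.27 and 7.08 in NZB:NZB livers, 7.0, 4.9 and 6.41 in BL/6J:NZB livers and 3.0, 4.52 and 6.13 in BL/6J:C57 livers, with neither nuclear comparison called. Gbp3 had 16.4, 14.4 and 13.7 in NZB:C57 hearts, 12.4, 11.8 and 12.2 in NZB:NZB hearts, 23, 21.9 and 25.1 in BL/6J:NZB hearts and 12.4, 17.2 and 14.8 in BL/6J:C57 hearts. It fell in NZB:NZB hearts by a log2 fold change of -0.89 (SE 0.12, adjusted p = 2.45e-05), kept under every alternative run, and overlapped between NZB:C57 and BL/6J:C57 hearts. In liver Gbp3 had 3.84, 5.24 and 3.46 in NZB:C57 livers, 7.49, 6.0 and 6.64 in NZB:NZB livers, 14.5, 12.3 and 14 in BL/6J:NZB livers and 10.4, 8.59 and 21.7 in BL/6J:C57 livers. All 6 NZB livers lay below all 6 BL/6J livers, by a log2 fold change of -1.40 (SE 0.25, adjusted p = 0.000972) on C57 mtDNA and -0.92 (SE 0.25, adjusted p = 0.016) on NZB mtDNA. The second of these was lost without NZB:NZB liver replicate 2 or BL/6J:NZB liver replicate 1 or 3 (log2 fold change -0.90 to -0.85). Gbp7 passed the test in no nuclear comparison.

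**Figure D4:**
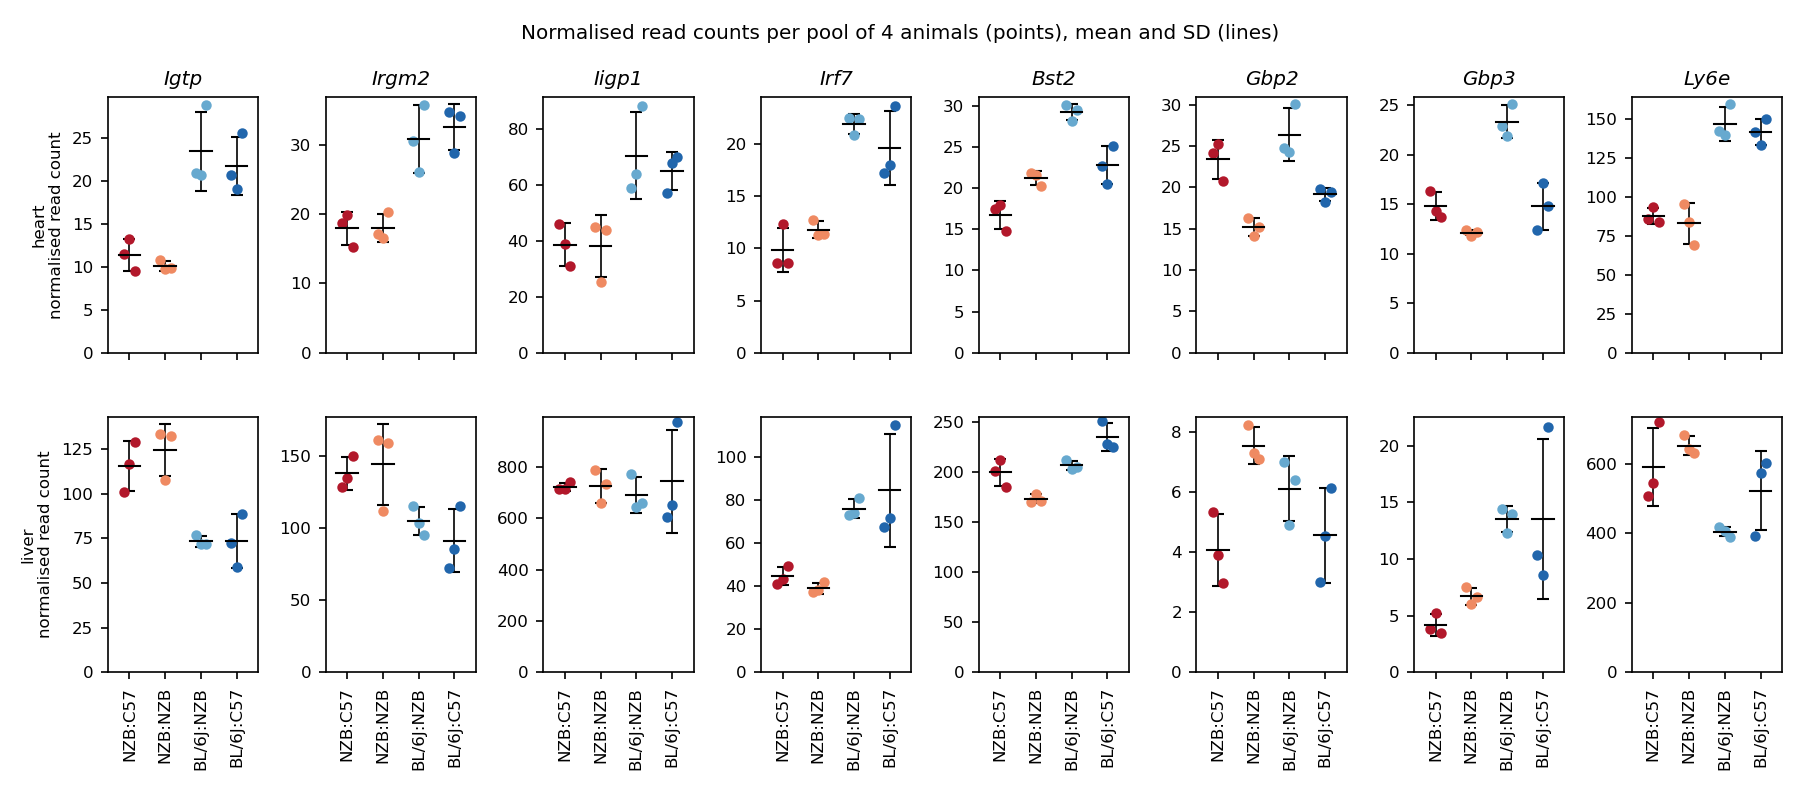
Normalised read count of 8 members in each pool (points), with the group mean and SD (lines, n = 3), in heart (upper row) and liver (lower row). Igtp lies lower in NZB:C57 and NZB:NZB hearts and higher in NZB:C57 and NZB:NZB livers than in the BL/6J groups, while Irf7 lies lower in both tissues.

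Among the other induced genes, Ifi27, a small membrane protein of mitochondria and the nuclear envelope, fell in NZB livers. It had 72.4, 75.9 and 95.2 in NZB:C57 livers, 45.4, 74.2 and 68.4 in NZB:NZB livers, 115, 106 and 111 in BL/6J:NZB livers and 122, 113 and 161 in BL/6J:C57 livers. All 6 NZB livers lay below all 6 BL/6J livers, by a log2 fold change of -0.69 (SE 0.17, adjusted p = 0.00985) on C57 mtDNA and -0.84 (SE 0.17, adjusted p = 0.00292) on NZB mtDNA, kept under every alternative run. In heart Ifi27 had 18.4, 21.4 and 22.1 in NZB:C57 hearts, 24.5, 26.8 and 25.4 in NZB:NZB hearts, 25, 24.6 and 27.4 in BL/6J:NZB hearts and 19.8, 26.4 and 24 in BL/6J:C57 hearts, with overlap between the nuclear genomes. Parp14, an ADP-ribosyltransferase, had 32.9, 33.8 and 29.8 in NZB:C57 hearts, 37.9, 40 and 35.3 in NZB:NZB hearts, 52.9, 39.1 and 47.3 in BL/6J:NZB hearts and 45.1, 41.8 and 37.7 in BL/6J:C57 hearts. NZB:C57 hearts were lower than BL/6J:C57 hearts by a log2 fold change of -0.36 (SE 0.11, adjusted p = 0.0136). Parp14 lost this call without NZB:C57 heart replicate 3 or BL/6J:C57 heart replicate 1 (log2 fold change -0.30). Xaf1, which binds the apoptosis inhibitor XIAP, had 10.8, 9.57 and 9.49 in NZB:C57 hearts, 11.7, 11.3 and 13.2 in NZB:NZB hearts, 20.1, 14.9 and 13.9 in BL/6J:NZB hearts and 12.1, 11.1 and 11.3 in BL/6J:C57 hearts. It fell in NZB:NZB hearts by a log2 fold change of -0.39 (SE 0.13, adjusted p = 0.0322). Xaf1 lost this call with DESeq2, library totals or only the libraries compared, and without NZB:NZB heart replicate 1 or 2 or BL/6J:NZB heart replicate 1 (log2 fold change -0.37 to -0.24 without a library). Ifi44 fell there too, by a log2 fold change of -0.48 (SE 0.16, adjusted p = 0.0347), lost with edgeR, DESeq2, library totals or only the libraries compared, and without NZB:NZB heart replicate 2 or 3 or BL/6J:NZB heart replicate 1 or 2 (log2 fold change -0.51 to -0.37 without a library), and Ifi35 passed the test in no nuclear comparison.

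The tissues were then set against each other on NZB mtDNA, by testing whether the difference of NZB:NZB over BL/6J:NZB in heart differed from that in liver. Of the members, 8 were called lower and 2 higher in this test, where 15.5% of 14968 genes were called (8.2% lower and 7.32% higher). Igtp differed by -1.87 (SE 0.21, adjusted p = 1e-06), Ly6e by -1.51 (SE 0.19, adjusted p = 6.61e-06), Irgm2 by -1.18 (SE 0.22, adjusted p = 0.000693) and Zbp1 by -1.64 (SE 0.30, adjusted p = 0.000386), as log2 fold change in heart minus that in liver. Gbp2 differed by -1.03 (SE 0.25, adjusted p = 0.00628) and Ifi27 by 0.84 (SE 0.21, adjusted p = 0.00948). These 6 kept their calls under every alternative run. Those of Iigp1 (-0.96, SE 0.28, adjusted p = 0.0188), Irgm1 (-0.48, SE 0.14, adjusted p = 0.0277), Oas2 (-0.69, SE 0.23, adjusted p = 0.0468) and Oasl1 (0.92, SE 0.31, adjusted p = 0.0466) did not. Iigp1 was lost without NZB:NZB heart replicate 2 or BL/6J:NZB heart replicate 3 (log2 fold change -0.79 to -0.70). Irgm1 was lost with edgeR or DESeq2, and without NZB:NZB heart replicate 2 or 3 or NZB:NZB liver replicate 1 or 2 or BL/6J:NZB heart replicate 2 or BL/6J:NZB liver replicate 3 (log2 fold change -0.47 to -0.38 without a library). Oas2 was lost with a pseudocount of 0.5, edgeR or DESeq2, and without NZB:NZB heart replicate 1 or 3 or NZB:NZB liver replicate 1, 2 or 3 or BL/6J:NZB heart replicate 1 or 2 or BL/6J:NZB liver replicate 1, 2 or 3 (log2 fold change -0.74 to -0.56 without a library). Oasl1 was lost with a pseudocount of 0.5, edgeR, DESeq2, library totals or no NZB:C57 libraries in the fit, and without NZB:NZB heart replicate 1 or 2 or NZB:NZB liver replicate 1 or 3 or BL/6J:NZB heart replicate 2 or 3 or BL/6J:NZB liver replicate 1, 2 or 3 (log2 fold change 0.73 to 0.99 without a library). Of the 7 interferon-inducible GTPases 5 were called lower, and Gbp3 and Gbp7 were not called.

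Markers of other cell types were read beside these differences, in which 24.9% to 35.2% of all genes were called. Macrophage markers rose in NZB hearts: on NZB mtDNA 9 of 12 tested were called higher and 0 lower, with summed values of 430 to 496 in NZB:NZB and 298 to 379 in BL/6J:NZB hearts. On C57 mtDNA 11 of 12 were called higher, with sums of 541 to 607 in NZB:C57 and 343 to 350 in BL/6J:C57 hearts. Endothelial markers summed to 1840 to 2040 in NZB:C57, 1120 to 1280 in NZB:NZB, 1120 to 1140 in BL/6J:NZB and 1020 to 1180 in BL/6J:C57 hearts, with 1 of 10 called higher on NZB mtDNA and 9 of 10 on C57 mtDNA. Fibroblast markers summed to 2580 to 2860 in NZB:C57, 2030 to 2340 in NZB:NZB, 853 to 898 in BL/6J:NZB and 849 to 884 in BL/6J:C57 hearts, and 7 of 9 were called higher on NZB mtDNA and 8 of 9 on C57 mtDNA. Neutrophil markers, scarce throughout, fell in NZB hearts (2 of 2 tested on each mtDNA), with sums of 1.53 to 7.95 in NZB:C57, 0.522 to 2.14 in NZB:NZB, 3.73 to 8.94 in BL/6J:NZB and 6.84 to 19.2 in BL/6J:C57 hearts. B and plasma cell markers summed to 19.4 to 39.0 in NZB:C57 and 19.9 to 64.6 in NZB:NZB hearts. Their sums were 14.6 to 17.4 in BL/6J:NZB and 12.8 to 20.9 in BL/6J:C57 hearts. Erythroid markers summed to 5470 to 17900 in NZB:C57 and 2860 to 5600 in NZB:NZB hearts. The erythroid sums were 3300 to 8790 in BL/6J:NZB and 2880 to 4050 in BL/6J:C57 hearts. Of 2 tested markers of plasmacytoid dendritic cells, a source of type I interferon, 1 fell in each nuclear comparison, and this was Bst2, itself a member. The sums of the 3 in the table, Bst2 included, were 117 to 144 in NZB:C57 and 151 to 155 in NZB:NZB hearts. They were 146 to 148 in BL/6J:NZB and 121 to 126 in BL/6J:C57 hearts, so the sum did not fall with Bst2 in heart. In liver these sums were 203 to 228 in NZB:C57, 189 to 196 in NZB:NZB, 219 to 231 in BL/6J:NZB and 240 to 268 in BL/6J:C57 mice. In liver the macrophage list had 1 of 15 called higher and 2 lower on NZB mtDNA, and 1 higher and 6 lower on C57 mtDNA, with sums of 404 to 543 in NZB:C57, 464 to 618 in NZB:NZB, 508 to 722 in BL/6J:NZB and 428 to 598 in BL/6J:C57 livers. Endothelial markers summed to 170 to 190 in NZB:C57, 348 to 395 in NZB:NZB, 214 to 292 in BL/6J:NZB and 135 to 224 in BL/6J:C57 livers, with 6 of 11 called higher on NZB mtDNA and 0 on C57 mtDNA. Fibroblast and stellate cell markers summed to 131 to 205 in NZB:C57, 349 to 380 in NZB:NZB, 222 to 340 in BL/6J:NZB and 117 to 192 in BL/6J:C57 livers, with 6 of 10 called higher on NZB mtDNA and 2 on C57 mtDNA. B and plasma cell markers rose in NZB livers, with 3 of 4 tested called on each mtDNA and sums of 50.7 to 68.4 in NZB:C57 and 41.1 to 44.2 in NZB:NZB livers, against 11.9 to 13.4 in BL/6J:NZB and 11.9 to 17.0 in BL/6J:C57 livers. T and NK cell markers, of which 2 are in the table, were not tested in heart and summed in liver to 6.4 to 7.05 in NZB:C57, 2.32 to 2.65 in NZB:NZB, 1.29 to 2.33 in BL/6J:NZB and 1.15 to 1.79 in BL/6J:C57 livers. Hepatocyte markers summed to 223000 to 241000 in NZB:C57, 197000 to 201000 in NZB:NZB, 126000 to 135000 in BL/6J:NZB and 132000 to 142000 in BL/6J:C57 livers. No macrophage, endothelial, fibroblast, neutrophil, B or plasma cell marker was at 0 in all libraries of a group. The part of these cells in the nuclear differences was not tested.

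The question of the study was what a change of mtDNA does on a given nuclear genome, and on the BL/6J nuclear genome few members changed. In heart, 2 members rose and 0 fell in BL/6J:NZB against BL/6J:C57 mice, where 0.935% of genes were called (0.427% higher and 0.507% lower). The median log2 fold change was 0.19 over the members and 0.00 over all genes, and 40 of the 43 members were above 0, against 50.5% of all genes. Members were measured in the same pools and are not independent, so the share above 0 is a description and was not tested. Gbp3, with the values given above, was higher in all 3 BL/6J:NZB hearts, by a log2 fold change of 0.63 (SE 0.12, adjusted p = 0.0285). Ifit1 was higher in all 3 as well, by a log2 fold change of 0.71 (SE 0.15, adjusted p = 0.0421). Gbp2 came next by p and did not overlap, but its adjusted p missed the threshold (0.44, SE 0.11, adjusted p = 0.0617). Gbp3 was lost without BL/6J:NZB heart replicate 2 or 3 or BL/6J:C57 heart replicate 1 or 3 (log2 fold change 0.52 to 0.68). Ifit1 was lost with no filter on low values or no NZB:C57 libraries in the fit, and without BL/6J:NZB heart replicate 2 or 3 or BL/6J:C57 heart replicate 1, 2 or 3 (log2 fold change 0.69 to 0.73 without a library). The count was 0 without BL/6J:NZB replicate 2 or 3 or BL/6J:C57 replicate 1 or 3, and 1 without BL/6J:C57 replicate 2. DESeq2 gave 23 of the 43 members, Gbp3 and Ifit1 among them, no adjusted p here, and called 2 others higher, Gbp2 and Gbp7.

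In liver none of the 43 members passed the test in BL/6J:NZB against BL/6J:C57 mice with limma, edgeR or DESeq2, where 0.0076% of genes were called in limma. The smallest p-values belonged to Ifitm3 (-0.35, SE 0.09, adjusted p = 0.312), Ifitm2 (-0.52, SE 0.19, adjusted p = 0.442) and Oas2 (-0.50, SE 0.18, adjusted p = 0.444), and Ifitm3 and Ifitm2 did not overlap. The third BL/6J:C57 liver had the highest value of its group for 30 of the 43 members and a summed value of 4390, against 3520 and 3740 in the other 2. Without that library 1 member was called. The difference between this mtDNA effect in heart and in liver was called for 0 members with limma and for 4 with DESeq2 (0.0735% of genes were called with limma, 0.0534% lower and 0.02% higher). Without the third BL/6J:C57 liver 5 members were called in it. The smallest p-values were those of Bst2 (0.53, SE 0.12, adjusted p = 0.0698), Ifitm2 (0.74, SE 0.21, adjusted p = 0.11) and Zbp1 (0.97, SE 0.30, adjusted p = 0.125).

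On the NZB nuclear genome, NZB:C57 was set against NZB:NZB. In heart 2 members rose and 3 fell, where 15.9% of genes were called (13% higher and 2.89% lower). Gbp2 rose in NZB:C57 hearts by a log2 fold change of 0.59 (SE 0.11, adjusted p = 0.000643) and Ifit2 by 0.49 (SE 0.16, adjusted p = 0.0499), and with library totals both turned, to -0.08 for Gbp2 and -0.18 for Ifit2. Library totals moved the median of all genes by -0.65 here, and 35 members were then called lower and 0 higher. The share of all genes called under that scaling is not given, so this count is not read as a result about the members. Cmpk2 fell by a log2 fold change of -0.42 (SE 0.13, adjusted p = 0.0306), Bst2 by -0.33 (SE 0.10, adjusted p = 0.0319) and Ddx58 by -0.30 (SE 0.10, adjusted p = 0.0404). The groups did not overlap for Gbp2, Cmpk2, Bst2 and Ddx58, and for Ifit2 they did. Gbp2 kept its call without any single library. Ifit2 was lost with a pseudocount of 0.5, no filter on low values or edgeR, and without NZB:C57 heart replicate 1 or 2 or NZB:NZB heart replicate 2 or 3 (log2 fold change 0.40 to 0.45 without a library). Cmpk2 was lost with DESeq2 or only the libraries compared, and without NZB:C57 heart replicate 1, 2 or 3 or NZB:NZB heart replicate 1 or 3 (log2 fold change -0.45 to -0.36 without a library). Bst2 was lost with DESeq2 or only the libraries compared, and without NZB:C57 heart replicate 1 or 3 or NZB:NZB heart replicate 1 or 2 (log2 fold change -0.36 to -0.25 without a library). Ddx58 was lost with DESeq2 or only the libraries compared, and without NZB:C57 heart replicate 1 or 2 or NZB:NZB heart replicate 1, 2 or 3 (log2 fold change -0.34 to -0.26 without a library). The count was 2 or 3 without each of the 6 libraries.

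In liver 3 members fell and 0 rose in NZB:C57 against NZB:NZB mice, where 8.09% of genes were called (4.44% lower and 3.65% higher). Library totals moved the median of all genes by -0.22 here, and 8 members were then called lower and 0 higher, without the share of all genes beside it. Ifit2 fell by a log2 fold change of -0.80 (SE 0.18, adjusted p = 0.0134), Gbp2 by -0.78 (SE 0.22, adjusted p = 0.0442) and Oasl2 by -0.60 (SE 0.17, adjusted p = 0.0482), all with no overlap between the groups. Ifit2 was lost without NZB:C57 liver replicate 1 or NZB:NZB liver replicate 2 or 3 (log2 fold change -0.79 to -0.71). Gbp2 was lost with no filter on low values, edgeR or DESeq2, and without NZB:C57 liver replicate 2 or 3 or NZB:NZB liver replicate 1, 2 or 3 (log2 fold change -0.81 to -0.61 without a library). Oasl2 was lost with no filter on low values, edgeR, DESeq2 or only the libraries compared, and without NZB:C57 liver replicate 2 or 3 or NZB:NZB liver replicate 1, 2 or 3 (log2 fold change -0.70 to -0.48 without a library). The count was 0 without NZB:NZB replicate 2 or 3 and 1 without NZB:C57 replicate 2 or NZB:NZB replicate 1. Gbp2 and Ifit2, called lower in liver, were the pair called higher in heart. Over the 43 members the log2 fold changes in heart and in liver had a Pearson correlation of -0.92, and 34 members had opposite signs. The same opposition ran through the genes at large, with -0.87 over 7550 genes as given above. For BL/6J:NZB over BL/6J:C57 these correlations were -0.02 over the members, of which 26 had opposite signs, and -0.29 over the 7550 genes. Markers of other cells moved with these differences. In NZB:C57 against NZB:NZB hearts 8 of 10 tested endothelial and 6 of 9 fibroblast markers were called higher and none lower. In the livers 7 of 11 endothelial and 7 of 10 fibroblast and stellate cell markers were called lower and none higher, with the sums given above, and their part in the members' differences was not tested.

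**Figure D5:**
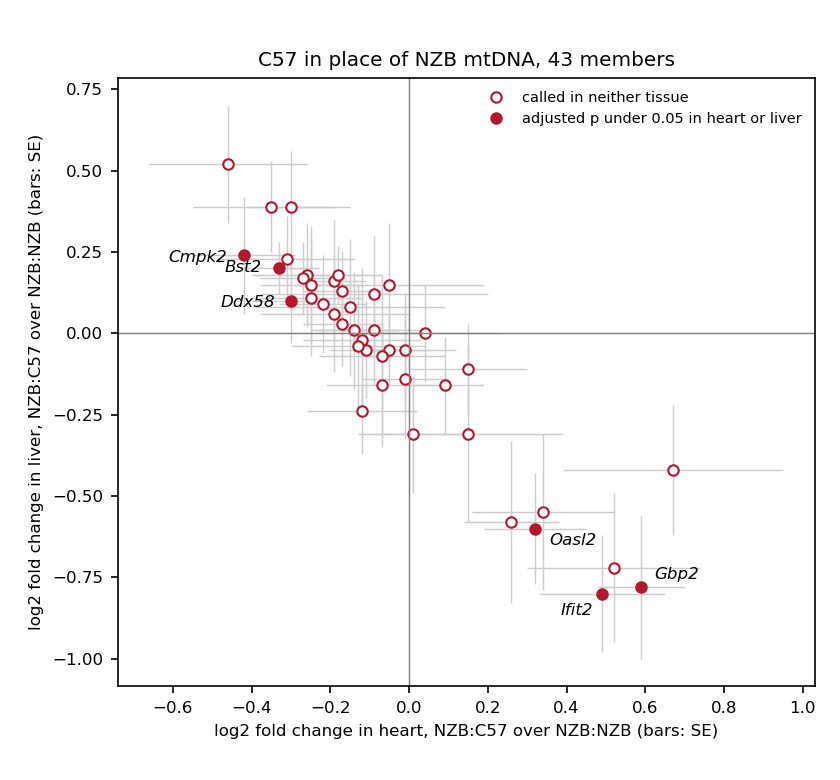
Log2 fold change of NZB:C57 over NZB:NZB for each of the 43 members in heart (x axis) and in liver (y axis), with SE. Filled points were called in at least 1 tissue, Gbp2 and Ifit2 lie at the lower right, and 34 members lie in the quadrants of opposite sign. Under library totals the heart values of Gbp2 and Ifit2 turned below 0.

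Whether the nuclear difference depended on the mtDNA was tested as the difference on C57 mtDNA minus that on NZB mtDNA. In heart 6 members were called, all positive, where 11.2% of genes were called (9.81% positive and 1.42% negative). Gbp2 differed by 1.02 (SE 0.15, adjusted p = 0.000125), Gbp3 by 0.90 (SE 0.17, adjusted p = 0.00115) and Oasl2 by 0.71 (SE 0.18, adjusted p = 0.013). For Ifit2 the difference was 0.86 (SE 0.23, adjusted p = 0.02), for Isg20 1.42 (SE 0.40, adjusted p = 0.0271) and for Zbp1 0.83 (SE 0.26, adjusted p = 0.0473). Gbp2 kept its call under every alternative run. Library totals, which moved the median of all genes by -0.62, ended the other 5 calls and gave 1 positive and 22 negative. The share of all genes called under that scaling is not given. Ifit2 was lost without NZB:C57 heart replicate 2 or NZB:NZB heart replicate 2 or 3 or BL/6J:NZB heart replicate 1 or BL/6J:C57 heart replicate 1 (log2 fold change 0.71 to 0.81). Isg20 was lost without NZB:NZB heart replicate 1 or BL/6J:NZB heart replicate 3 or BL/6J:C57 heart replicate 1 or 2 (log2 fold change 1.24 to 1.41). Zbp1 was lost with a pseudocount of 0.5, edgeR or DESeq2, and without NZB:C57 heart replicate 1, 2 or 3 or NZB:NZB heart replicate 2 or 3 or BL/6J:NZB heart replicate 1, 2 or 3 or BL/6J:C57 heart replicate 1 or 2 (log2 fold change 0.73 to 0.89 without a library). The count was 3 without BL/6J:C57 replicate 1. In liver 0 members were called with limma, edgeR or DESeq2 (2.49% of genes with limma, 1.82% positive and 0.669% negative), and library totals moved the median of all genes by -0.12. Of the members, the smallest p-values were those of Oas2 (-0.81, SE 0.25, adjusted p = 0.169), Zbp1 (-1.03, SE 0.34, adjusted p = 0.198) and Isg20 (-0.80, SE 0.28, adjusted p = 0.234). In liver 3 members were called without BL/6J:C57 replicate 3 and 1 without BL/6J:C57 replicate 1 or NZB:C57 replicate 3.

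The members were mostly lower in heart than in liver. In NZB:NZB mice 30 members were lower and 5 higher in heart, where 75.1% of genes were called (37.4% lower and 37.8% higher), with a median log2 fold change of -1.23 over the members and -0.01 over all genes. In BL/6J:C57 mice 33 were lower and 4 higher, where 77% of genes were called (39.8% lower and 37.3% higher), with medians of -1.45 over the members and -0.03 over all genes. Bst2 was lower in heart by a log2 fold change of -2.97 (SE 0.08, adjusted p = 1.76e-19) in NZB:NZB and -3.31 (SE 0.08, adjusted p = 1.94e-20) in BL/6J:C57 mice. Iigp1 was lower by a log2 fold change of -4.25 (SE 0.19, adjusted p = 2.7e-15) in NZB:NZB and -3.47 (SE 0.19, adjusted p = 1.17e-13) in BL/6J:C57 mice, and Igtp by -3.49 (SE 0.15, adjusted p = 7.52e-16) in NZB:NZB and -1.70 (SE 0.15, adjusted p = 4.63e-10) in BL/6J:C57 mice. Ifitm3 was lower by a log2 fold change of -2.44 (SE 0.10, adjusted p = 6.42e-16) in NZB:NZB and -3.25 (SE 0.10, adjusted p = 2.31e-18) in BL/6J:C57 mice. Gbp2, Ifit2, Oas2 and Oasl2 were higher in heart in both genotypes, Gbp2 by 0.93 (SE 0.18, adjusted p = 6.01e-05) in NZB:NZB and 1.90 (SE 0.18, adjusted p = 1.27e-09) in BL/6J:C57 mice, and Gbp3 was called higher in NZB:NZB mice (0.77, SE 0.21, adjusted p = 0.00185) and not called in BL/6J:C57 mice (0.21, SE 0.21, adjusted p = 0.358). Library totals moved the median of all genes by 0.74 in NZB:NZB and 0.77 in BL/6J:C57 mice, left 23 lower and 12 higher in NZB:NZB and 25 lower and 10 higher in BL/6J:C57 mice, and turned Eif2ak2 and Parp14 in both genotypes and Cmpk2 and Xaf1 in BL/6J:C57 mice. The share of all genes called with library totals is not given. For the call of Oasl2 in BL/6J:C57 mice, 0.34 (SE 0.15, adjusted p = 0.0447), and that of Cmpk2, -0.41 (SE 0.16, adjusted p = 0.026), single libraries decided. Oasl2 was lost without BL/6J:C57 heart replicate 1, 2 or 3 or BL/6J:C57 liver replicate 1 or 2 (log2 fold change 0.29 to 0.37). Cmpk2 was lost with DESeq2, and without BL/6J:C57 heart replicate 2 or 3 or BL/6J:C57 liver replicate 3 (log2 fold change -0.40 to -0.23 without a library).

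The rest of the pathway was described from lists of known genes. Its counts stand beside 29.1% of all genes called in heart on NZB mtDNA, 35.2% in heart on C57 mtDNA, 24.9% in liver on NZB mtDNA and 27.9% in liver on C57 mtDNA. None of the 14 interferon genes listed was found by symbol in the table, so their levels cannot be given. Of 10 receptors and Janus kinase pathway genes, 1 rose and 2 fell in NZB:NZB against BL/6J:NZB hearts. Il10rb, a chain of the interferon lambda receptor, fell there to 91.9 ± 0.995, against 125 ± 2.68 in BL/6J:NZB hearts (SD, n = 3 each, log2 fold change -0.44, SE 0.07, adjusted p = 9.33e-05). On C57 mtDNA 3 rose and 3 fell in heart, and Ifngr2, a chain of the interferon gamma receptor, fell to 130 ± 11.1 in NZB:C57, against 170 ± 4.18 in BL/6J:C57 hearts (log2 fold change -0.39, SE 0.07, adjusted p = 0.000311). In liver 0 of 9 tested were called on NZB mtDNA, and on C57 mtDNA Ifnar1, a chain of the type I receptor, rose and Ifnar2, the other chain, fell. Of the 17 sensors, adaptors and upstream kinases in the table, 2 rose in heart on NZB mtDNA: Traf3, an adaptor, by a log2 fold change of 0.69 (SE 0.11, adjusted p = 0.000237), and Tbk1, the kinase of Irf3, by 0.41 (SE 0.11, adjusted p = 0.01). On C57 mtDNA 1 rose and 2 fell in heart, and Cgas, the sensor of cytosolic DNA, had 3.12 ± 0.919 in NZB:C57 and 0.839 ± 0.341 in BL/6J:C57 hearts (log2 fold change 1.15, SE 0.22, adjusted p = 0.000537). Cgas was near the detection floor there, with a BL/6J:C57 mean below the filter minimum of 1. In liver 2 rose and 2 fell on each mtDNA, and Irf5 fell on both, with a log2 fold change of -1.12 (SE 0.18, adjusted p = 0.000382) on NZB mtDNA and -0.97 (SE 0.18, adjusted p = 0.0011) on C57 mtDNA.

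Of 18 negative regulators, 0 were called in heart on NZB mtDNA and 1 rose and 1 fell on C57 mtDNA. In liver 0 rose and 2 fell on NZB mtDNA, and 1 rose and 2 fell on C57 mtDNA. Rnf125, a ubiquitin ligase that targets RIG-I, had 152 ± 20.5 in NZB:C57, 80.7 ± 6.48 in NZB:NZB, 184 ± 57.5 in BL/6J:NZB and 76.0 ± 23.7 in BL/6J:C57 livers. Its nuclear difference in liver was 1.03 (SE 0.24, adjusted p = 0.00577) on C57 mtDNA and -1.13 (SE 0.24, adjusted p = 0.00342) on NZB mtDNA. Of 58 other interferon-stimulated genes in the table, 53 were tested in heart, where 1 rose and 17 fell on NZB mtDNA and 10 rose and 10 fell on C57 mtDNA. In liver, of 55 tested, 5 rose and 9 fell on NZB mtDNA and 4 rose and 16 fell on C57 mtDNA. Mndal, of the Ifi200 cluster of DNA-binding proteins, was low in NZB hearts, at 0.795 ± 0.424 in NZB:NZB and 20.7 ± 0.447 in BL/6J:NZB hearts (log2 fold change -3.63, SE 0.23, adjusted p = 2.28e-09). Its NZB:NZB mean lay below the filter minimum of 1. Tgtp1, an effector GTPase of the family of Iigp1, rose in NZB:NZB livers, with 94.7 ± 26.1 against 26.0 ± 1.12 in BL/6J:NZB livers, and had 3.72 ± 0.884 in NZB:NZB and 13.1 ± 2.5 in BL/6J:NZB hearts. Its heart difference minus its liver difference was -3.37 (SE 0.29, adjusted p = 1.79e-08). Tgtp2, a close copy of Tgtp1, fell in NZB:NZB livers, with a log2 fold change of -2.37 (SE 0.27, adjusted p = 2.42e-05), and reads of the pair may be divided between the copies. Tgtp2 was near the detection floor, at 0.245 ± 0.282 in NZB:NZB and 5.75 ± 2.94 in BL/6J:NZB livers. The lists were drawn up with earlier results of these data known, so their counts are descriptions.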

How the data were processed

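The deposited table holds 15323 Ensembl genes in 24 libraries, each column matched to its sample by name. The column names in the file header call the deposited signal normalised, and the method of scaling is not stated there. Whole reads were recovered from it, since 100% of values in every column lay within 0.01 reads of a multiple of 1 step. Tools in the submitters' processing notes are Bowtie2 2.0.6, cutadapt 1.2.1, edgeR (version absent) and RSEM 1.2.3, with the build GRCm38. The strand setting of the counting is not stated. Symbols came from GENCODE vM21 (98.58% of genes matched).

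The members and lists were chosen with earlier results of these data known. Values in every library are given for called members, up to 12 per comparison by smallest p with each role that has a called member, or for the 3 of smallest p where fewer than 3 were called. Genes of the pathway lists were named by smallest p, with 1 left out that is not reported here.

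Differences in log2(value + 1) were tested with limma-trend (limma 3.58.1, R 4.3.3), in 1 fit per tissue and 1 over both, for genes that reached 1 in 3 or more libraries (13159 in liver, 13803 in heart, 14968 in both). P-values were adjusted by Benjamini-Hochberg over all genes tested. Alternatives were edgeR 4.0.16 and DESeq2 1.42.0 on recovered reads, a pseudocount of 0.5, no filter, library totals, a replicate block, only the libraries compared, leaving out each library and, chosen after seeing the data, leaving out the NZB:C57 libraries. Recovered reads per library ran from 3714278 to 34974268. The fits were tested on simulated counts.

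Same-numbered pools deviated together in 1 comparison, NZB:NZB over BL/6J:NZB livers, with correlations of 0.17, 0.14 and 0.15 over genes. In NZB:C57 over BL/6J:C57 livers replicates 2 and 3 gave -0.18 and -0.14. The labels do not state that pools are paired. All calls given are from fits without a replicate block, which was run only as an alternative.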

Additional observations from a re-analysis of the deposited data

Results flagged for a closer look

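In 6 members the difference between nuclear genomes in heart differed between the mtDNAs (limma, C57 mtDNA minus NZB mtDNA). This was a test of the difference itself, in which 11.2% of 13803 genes were called. Library totals ended 5 of the 6 calls. The differences of log2 fold changes were 0.83 for Zbp1, 0.86 for Ifit2, 0.71 for Oasl2, 1.42 for Isg20, 1.02 for Gbp2 and 0.90 for Gbp3. All 6 involve the NZB:C57 hearts, whose cardiomyocyte marker sum was at least 272000, against at most 49700 in the other hearts, and the part of this in the result was not tested. In 10 members the difference of NZB:NZB over BL/6J:NZB differed between heart and liver by such a test (15.5% of 14968 genes). It was lower in heart by log2 values of -1.87 for Igtp, -1.64 for Zbp1, -1.51 for Ly6e, -1.18 for Irgm2, -1.03 for Gbp2, -0.96 for Iigp1, -0.69 for Oas2 and -0.48 for Irgm1. It was higher in heart by 0.92 for Oasl1 and 0.84 for Ifi27. These 10 use no NZB:C57 library in the contrast, and leaving those libraries out of the fit gave 9 called members. Of the 10 calls, 6 held under every alternative run and 4 did not. Groups had 3 libraries each, too few for a test of single outlying libraries.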

How the results depend on the processing

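Over the 14 counts of called members and the 162 single called values, 2303 alternative values were computed for the single values, of which 2022 kept their call, 272 lost it and 9 turned direction. All 9 turned under library totals in place of the authors' scaling. They were, in heart, Gbp2 (-0.08) and Ifit2 (-0.18) in NZB:C57 over NZB:NZB and Eif2ak2 (-0.15) in NZB:C57 over BL/6J:C57, and, for heart over liver, Cmpk2 (0.51), Eif2ak2 (0.19), Parp14 (0.22) and Xaf1 (0.32) in BL/6J:C57 and Eif2ak2 (0.22) and Parp14 (0.02) in NZB:NZB mice. Library totals also gave 35 called members in place of 5 for NZB:C57 over NZB:NZB hearts, 8 in place of 3 for the same livers, 38 in place of 13 for NZB:C57 over BL/6J:C57 hearts and 23 in place of 6 for the dependence of the heart difference on mtDNA. In these the median of all genes moved with the scaling, by up to -0.65, and the share of all genes called with library totals is not given. For BL/6J:NZB over BL/6J:C57 hearts, 1 member in place of 2 was called without the filter, 1 without the NZB:C57 libraries and 0 with the replicate block, and DESeq2 called 2, neither of them called by limma. For NZB:C57 over NZB:NZB livers, 1 in place of 3 was called without the filter, with edgeR, with DESeq2 and with the replicate block. For NZB:C57 over NZB:NZB hearts, 3 in place of 5 were called with DESeq2, 2 with the replicate block and 2 with only the libraries compared. DESeq2 called 4 members (Bst2, Ifit1, Ifitm2 and Ifitm3) in place of 0 in the difference between tissues of BL/6J:NZB over BL/6J:C57. The cause of these moves was not tested.

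Leaving out 1 library at a time gave 16 to 20 called members for NZB:NZB over BL/6J:NZB hearts and 9 to 13 for the livers. For NZB:C57 over BL/6J:C57 it gave 11 to 14 in heart and 11 to 20 in liver. For NZB:C57 over NZB:NZB it gave 2 to 3 in heart and 0 to 2 in liver. For BL/6J:NZB over BL/6J:C57 it gave 0 to 2 in heart and 0 to 1 in liver. The dependence on mtDNA had 3 to 6 in heart and 0 to 3 in liver, the difference between tissues 7 to 10 for the nuclear genome and 0 to 5 for mtDNA on the BL/6J nuclear genome, and heart over liver 35 to 35 in NZB:NZB and 35 to 37 in BL/6J:C57 mice.

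Replicates of different groups share a number, and the labels do not state whether they share anything else. The replicate block gave 21 called members in NZB:NZB over BL/6J:NZB hearts, 12 in NZB:C57 over BL/6J:C57 hearts and 13 in the livers. Among the calls it ended were those of Mx2 in NZB:NZB over BL/6J:NZB hearts, Ifit3 in NZB:C57 over BL/6J:C57 hearts and Bst2, Ifitm1 and Isg20 in the livers. In NZB:NZB over BL/6J:NZB livers the replicate block gave the same 13 members as the fit without it. Low counts limit Zbp1, Mx1, Mx2 and Oasl1 in heart, and Cgas, Mndal and Tgtp2 among the pathway genes.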
